A study of Rattus norvegicus with 12 samples.

Results

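The genes described here encode the proteins of the mitochondrial ribosome, measured in rat F111 fibroblasts after 16 h of growth attached to plastic (A16) or 16 h in suspension (NA16). Members were all genes whose symbol in the platform annotation begins with Mrpl or Mrps followed by a number, and each was represented by its brightest probe set. There were 73 such genes, covered by 97 probe sets, among the 14217 genes tested. The members comprised 46 Mrpl genes and 27 Mrps genes. A further 4 genes of this naming, Mrpl9, Mrpl11, Mrpl24 and Mrps10, were not analysed here.

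Mitochondria keep a small genome and their own ribosome, which translates a handful of hydrophobic respiratory chain subunits. All of the proteins of this ribosome are encoded in the nucleus, made in the cytosol and imported. Some descend from bacterial ribosomal proteins and others were added in the mitochondrial lineage. The large subunit joins amino acids and guides the new chain to the inner membrane, while the small subunit reads the messenger RNA.

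F111 is an established rat fibroblast line, and both groups were the same line in the same serum-containing medium with no genetic change or drug. The A16 cells were the control. Each state had 3 Affymetrix rat arrays, named biological replicate 1, biological replicate 2 and technical replicate 2, and the latter was averaged with biological replicate 1, so that n = 2 replicates per state. The study describes the line as cytogenetically heterogeneous, and describes only a minority of the suspended cells as viable at this time. The share of the RNA that came from dying cells was not measured. In such bulk samples fewer cells of a type and less RNA per cell cannot be told apart. The question was which transcripts differ after 16 h without adhesion.

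The arrays were checked before the comparison. Median RMA intensity was 152 to 158 on the 6 arrays. These values had already been normalized between arrays, so like medians are no check of RNA amount or array quality. In A16 cells technical replicate 2 differed less from biological replicate 1 (root mean square difference 0.175 on the log2 scale) than from biological replicate 2 (0.299). In NA16 cells it was the reverse, with 0.269 to biological replicate 1 and 0.175 to biological replicate 2, which goes against the reading of the labels used for averaging. Results are therefore also given with the technical arrays left out. Of the 12 fibroblast markers, Col1a1, Col1a2, Vim and Fn1 had group means of 13.58 to 14.77 (log2 RMA intensity), but Dcn (5.23 and 5.81 in A16 and NA16), Lum and Pdgfrb (7.65 and 9.05) were dimmer, and 5 of the 12 were higher in NA16 and 1 lower. Of 7 macrophage markers, Ptprc and Csf1r had group means of 5.68 to 5.82, while Cd14 had 10.53 and 10.17, and 2 rose, Cd68 from 6.72 to 8.17 and Lyz2 from 7.06 to 8.21. The summed macrophage level was 10.92 to 11.11 on the A16 arrays and 10.96 to 11.15 on the NA16 arrays. The summed level of 6 epithelial markers was 10.28 to 10.48 on the A16 arrays and 11.38 to 11.61 on the NA16 arrays, with Krt8 and Epcam the 2 that rose. Of 5 endothelial markers 1 was higher and 1 lower. The beta-actin control probe sets changed by -1.21 at the 5′ end and -0.72 at the 3′ end of the transcript, whereas those of GAPDH changed by 0.19 and 0.24. Whether cell makeup or RNA quality had a part in the results below was not tested.

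In suspension many mitochondrial ribosomal protein genes were lower, and few were higher. Of the 73 genes, 30 (41.1%) were called lower at an adjusted p below 0.05 (limma, Benjamini-Hochberg adjustment over all genes), where 16.9% of all genes tested were lower. Only 6 members (8.22%) were called higher, against 21.9% of all genes. All 73 members lie at or above the median signal, and among the 7109 such genes, adjusted over these alone, the shares were 27.1% lower and 29.3% higher, with 30 and 6 members called. The other 37 members were not called, with changes of -0.43 to 0.30 on the log2 scale. At least 2-fold falls were found for 14 members, and 6.12% of all genes had them, while 0 members rose at least 2-fold, as 7.74% of all genes did. Counting every member, the median log2 change was -0.34 (quartiles -0.69 and 0.06), beside 0.01 (quartiles -0.21 and 0.34) over all genes. The ordered plot of changes shows the long left arm made by the falls.

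**Figure D1:**
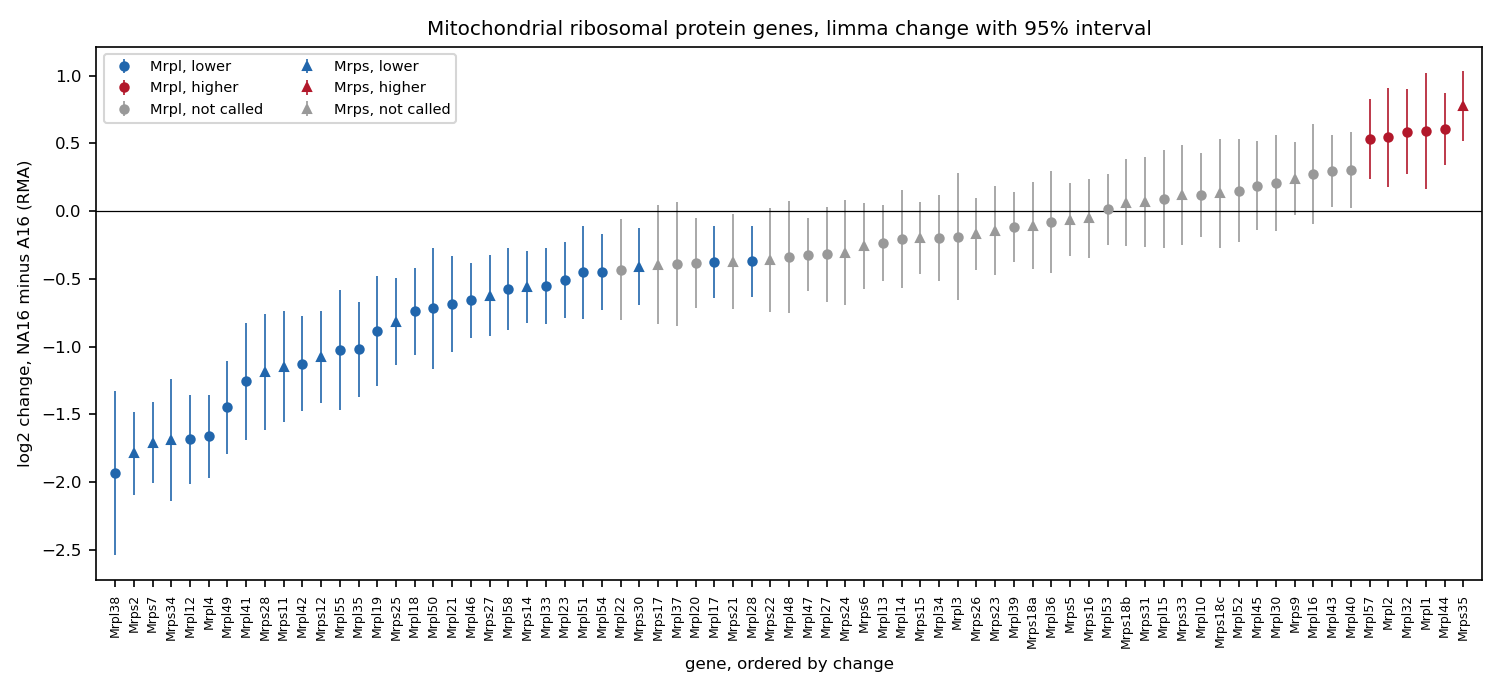
Log2 change in RMA intensity, NA16 minus A16, of each of the 73 genes with the 95% interval of the limma fit, ordered by change. Circles are Mrpl and triangles Mrps genes, coloured by call: 30 are lower, 6 are higher and 37 are not called, and the changes run from -1.93 for Mrpl38 to 0.77 for Mrps35.

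The single arrays showed the same split. In 39 members (53.4%) all 3 NA16 arrays lay below all 3 A16 arrays, a pattern held by 23.9% of all genes. In 8 members (11%) they lay above, against 27.8% of all genes, and in 26 members the arrays overlapped. The shares of all genes include genes below the median signal. Of the 79 nuclear respiratory chain subunits described below, 42 (53.2%) had all NA16 arrays below and 6 (7.59%) above, shares close to those of the members. Taking each array against the A16 mean of each gene, the median over the members was 0.02, -0.11 and 0.18 on A16 biological replicate 1, biological replicate 2 and technical replicate 2. On the NA16 arrays, in that order, it was -0.20, -0.37 and -0.36. A16 biological replicate 2 was thus nearest to the NA16 arrays, and NA16 biological replicate 1 nearest to the A16 arrays.

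These counts moved with some settings. With the technical arrays left out, 24 members were lower and 5 higher, with a median of -0.25, and the counts were also 24 and 5 when each technical array was joined to the array it differed least from. Without A16 replicate 1 the median was -0.18 with 23 lower, and without A16 replicate 2 or NA16 replicate 1 the number called higher was 2. The methods' t-test called 0 members in either direction after Benjamini-Hochberg adjustment, with 28 lower and 4 higher at an unadjusted p below 0.05, where limma had 34 and 8.

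The 6 members with the largest falls were more than 3-fold lower in suspension, and their arrays are given in the order biological replicate 1, biological replicate 2 and technical replicate 2, as log2 RMA intensity. Mrpl38, a protein of the central protuberance where the large subunit meets the small one, read 9.95, 10.54 and 10.30 in A16 cells and 7.67, 8.77 and 8.38 in NA16 cells. NA16 biological replicate 1 was the lowest of all, and the states were more than 1 log2 unit apart at their nearest arrays. The mean went from 10.33 ± 0.29 to 8.40 ± 0.53 (SD, n = 2), a 3.82-fold fall (log2 change -1.93, SE 0.26, limma adjusted p = 0.00118).

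Mrps2, a small subunit protein with a bacterial counterpart, read 10.21, 10.16 and 10.29 in A16 cells and 8.26, 8.54 and 8.33 in NA16 cells. The 3 arrays of each state lay close together and far from the other state, which made a 3.45-fold fall (log2 change -1.79, SE 0.13, limma adjusted p = 0.000121). Mrps7, which lies in the head of the small subunit, read 11.76, 11.69 and 11.93 in A16 cells and 10.25, 9.97 and 10.04 in NA16 cells. It was 3.27-fold lower, again with no overlap (log2 change -1.71, SE 0.13, limma adjusted p = 0.000129). Mrps34, a small subunit protein without a bacterial counterpart, read 11.31, 10.94 and 11.64 in A16 cells and 9.76, 9.41 and 9.48 in NA16 cells. Its A16 arrays were the more scattered, and the fall was 3.23-fold (log2 change -1.69, SE 0.19, limma adjusted p = 0.000619).

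Mrpl12 forms part of the stalk that receives elongation factors, and it is also known to bind the mitochondrial RNA polymerase. It read 12.27, 12.10 and 12.49 in A16 cells and 10.70, 10.48 and 10.56 in NA16 cells. The mean went from 12.24 ± 0.20 to 10.56 ± 0.11 (SD, n = 2), a 3.22-fold fall (limma adjusted p = 0.00019). Mrpl10, which holds Mrpl12 on the ribosome, had readings of 10.21, 10.36 and 10.17 in A16 cells and 10.23, 10.49 and 10.36 in NA16 cells. These overlapped, and the change of 0.12 was not called (limma adjusted p = 0.564). Mrpl4, found near the exit tunnel for the new chain, read 11.10, 10.90 and 11.17 in A16 cells and 9.26, 9.39 and 9.37 in NA16 cells. It was 3.17-fold lower with tight arrays in both states (log2 change -1.66, SE 0.13, limma adjusted p = 0.000149).

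The next 6 falls lay between 2.11-fold and 2.73-fold, all at a limma adjusted p of 0.00215 or less and all without overlap between the arrays of the states. Mrpl49 read 10.48, 10.28 and 10.62 in A16 cells and 9.24, 8.86 and 8.91 in NA16 cells, a log2 change of -1.45. Mrpl41, which has been described as interacting with p53 and Bcl2, read 11.85, 11.44 and 11.92 in A16 cells and 10.73, 10.25 and 10.39 in NA16 cells, a change of -1.26. In both of these NA16 biological replicate 1 was the highest of the NA16 arrays and A16 biological replicate 2 the lowest of the A16 arrays. The same order held for Mrps28, which read 10.01, 9.71 and 10.22 in A16 cells and 9.16, 8.56 and 8.62 in NA16 cells, a change of -1.19. It also held for Mrps11, a protein of the small subunit platform, which read 10.41, 10.12 and 10.63 in A16 cells and 9.46, 9.03 and 9.15 in NA16 cells, a change of -1.15.

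Mrpl42 read 12.10, 11.90 and 12.25 in A16 cells and 11.16, 10.79 and 10.90 in NA16 cells, a log2 change of -1.13. Mrps12 sits at the decoding centre, where codon and anticodon are checked. It read 11.39, 11.26 and 11.58 in A16 cells and 10.50, 10.16 and 10.34 in NA16 cells, a change of -1.08. RefSeq also lists genes named Mrpl41l1 and Mrpl42l1, and a share of the Mrpl41 and Mrpl42 signal from such copies cannot be separated here. These 12 falls held under every alternative run except the methods' t-test.

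**Figure D2:**
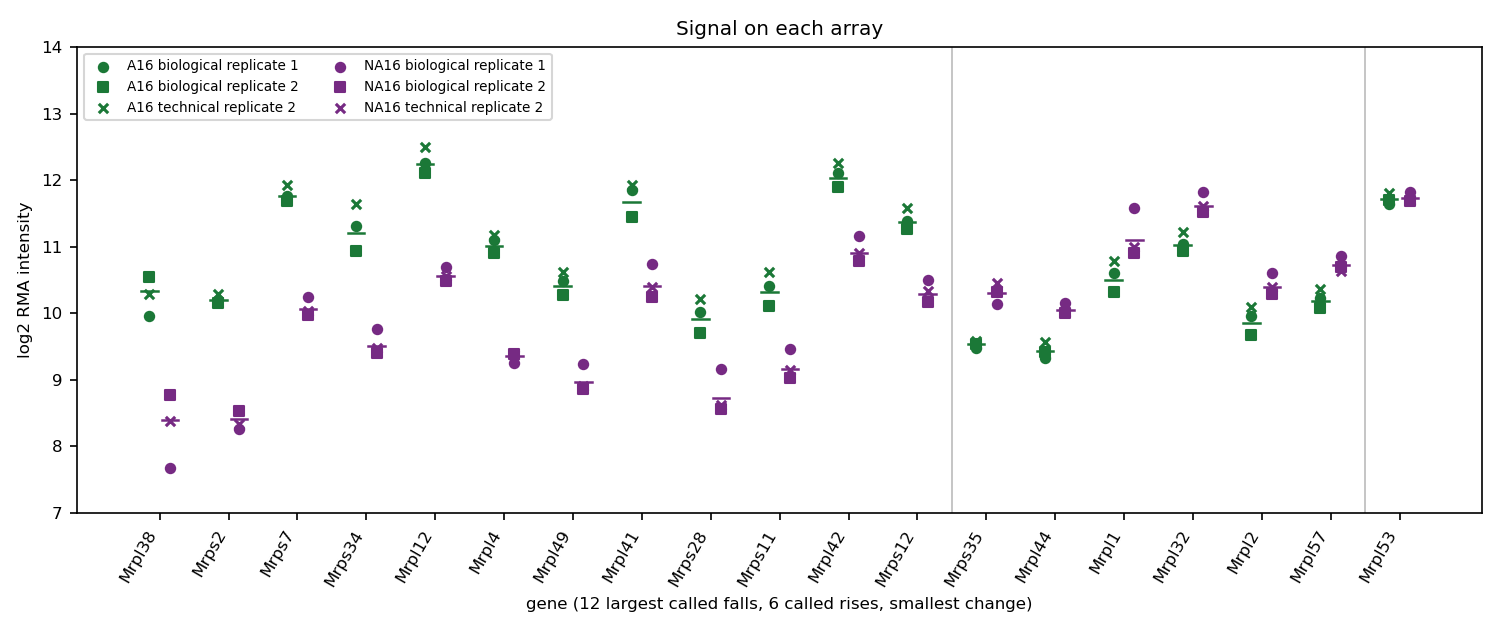
Log2 RMA intensity on each of the 6 arrays for the 12 largest falls, the 6 rises and the member with the smallest change (Mrpl53), A16 in green and NA16 in purple. Markers give the array, horizontal lines the mean over 2 replicates, and grey lines part the 3 sets: the arrays of the states are apart in all 18 called genes shown and overlap in Mrpl53.

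The remaining 18 falls were smaller. Mrpl55 (-1.03) and Mrpl35 (-1.02) were just over 2-fold lower. Those of Mrpl19, Mrps25, Mrpl18, Mrpl50, Mrpl21, Mrpl46, Mrps27, Mrpl58, Mrps14, Mrpl33 and Mrpl23 ran from -0.89 to -0.51, and those of Mrpl51, Mrpl54, Mrps30, Mrpl17 and Mrpl28 from -0.45 to -0.37. Mrpl58 is the peptidyl-tRNA hydrolase that frees stalled chains, and Mrps27 is a pentatricopeptide repeat protein, a class that binds RNA. Nearest the threshold, Mrpl51 was called with -0.45 (limma adjusted p = 0.0455) and Mrpl47 was not with -0.32 (0.0616). Of all 30 falls, 18 stayed called under every alternative except the methods' t-test.

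The 6 rises were all under 2-fold. Mrps35, a small subunit protein without a bacterial counterpart, read 9.48, 9.54 and 9.58 in A16 cells and 10.14, 10.32 and 10.46 in NA16 cells. Its states were clearly apart, and it was 1.71-fold higher (log2 change 0.77, SE 0.11, limma adjusted p = 0.00152). Mrpl44, which carries a ribonuclease III-like fold, read 9.33, 9.42 and 9.57 in A16 cells and 10.16, 10.00 and 10.02 in NA16 cells. It was 1.53-fold higher (log2 change 0.61, SE 0.11, limma adjusted p = 0.00483), and these were the 2 rises called under every alternative except the methods' t-test.

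The calls of the other 4 rises depended on which replicates were used. Mrpl1 read 10.60, 10.32 and 10.78 in A16 cells and 11.59, 10.91 and 10.99 in NA16 cells, so that NA16 biological replicate 1 stood well above the rest. Its change of 0.59 (limma adjusted p = 0.0376) was 0.41 without NA16 replicate 1 or without A16 replicate 2, and the call was lost in both. The call was also lost without the technical arrays (limma adjusted p = 0.0562), and it held under only 11 of the 17 alternatives. Mrpl32 read 11.04, 10.94 and 11.21 in A16 cells and 11.82, 11.52 and 11.61 in NA16 cells, a change of 0.58 (limma adjusted p = 0.0118). Mrpl2, part of the peptidyl transferase centre, read 9.95, 9.68 and 10.09 in A16 cells and 10.61, 10.29 and 10.40 in NA16 cells, a change of 0.54 (limma adjusted p = 0.0299). The arrays of the states were apart in both. Mrpl57 read 10.23, 10.08 and 10.36 in A16 cells and 10.87, 10.70 and 10.63 in NA16 cells, a change of 0.54 (limma adjusted p = 0.013). The calls of Mrpl32, Mrpl2 and Mrpl57 were lost without A16 replicate 2, at changes of 0.49, 0.37 and 0.43. They were also lost without NA16 replicate 1, at 0.48, 0.44 and 0.51, and that of Mrpl57 also with its probe sets averaged, at 0.36 (adjusted p = 0.135).

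Members that did not pass the test include proteins of central parts of the ribosome. Mrpl53 had the smallest change, with 11.64, 11.70 and 11.81 in A16 cells and 11.83, 11.69 and 11.70 in NA16 cells. Its arrays overlapped, and the change of 0.01 had a 95% interval of -0.25 to 0.28. Mrpl3, which borders the peptidyl transferase centre, had a change of -0.19 with an interval of -0.66 to 0.28, wide enough to hold a fall of the size called in other members. Mrpl45, which ties the ribosome to the inner membrane, had 0.19 with an interval of -0.14 to 0.52. Mrpl22 (-0.43, limma adjusted p = 0.0712) was not called although its NA16 arrays all lay below the A16 arrays.

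Both subunits held falls. Of the 46 Mrpl genes 20 (43.5%) were lower and 5 (10.9%) higher, with a median log2 change of -0.36. Of the 27 Mrps genes 10 (37%) were lower and 1 (3.7%) higher, with a median of -0.31. Over all genes tested 16.9% were lower and 21.9% higher, and among those at or above the median signal 27.1% and 29.3%. The Mrpl count was 13 without A16 replicate 1 or without NA16 replicate 2. Mrps18a and Mrps30, although named for the small subunit, are built into the large one. Counted by particle, 21 of 48 large subunit genes (43.8%) and 9 of 25 small subunit genes (36%) were lower. Whether the subunits differ was not tested. Split by ancestry, 17 of 42 members with a bacterial counterpart (40.5%) were lower and 3 higher (median -0.35). Of the 31 without one 13 (41.9%) were lower and 3 higher (median -0.34).

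Members of single structural parts took different calls, in groupings that were made after the values were seen and are not complete. Of 5 proteins of the central protuberance Mrpl38 (-1.93), Mrpl46 (-0.66) and Mrpl58 (-0.57) were lower, while Mrpl48 (-0.34) and Mrpl40 (0.30) were not called. In the head of the small subunit Mrps7 (-1.71) and Mrps14 (-0.56) were lower, Mrps35 (0.77) was higher, and Mrps9 (0.24), Mrps31 (0.07) and Mrps33 (0.12) were not called. Near the exit tunnel Mrpl4 (-1.66), Mrpl23 (-0.51) and Mrpl17 (-0.38) were lower, and Mrpl22 (-0.43) and Mrpl45 (0.19) were not called.

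Further probe sets gave a second reading for 18 members. In 0 of these were probe sets called in opposite directions, and 22 of the 24 further probe sets had the sign of the brightest. Of the 2 further probe sets of Mrps2, 1 changed by -1.34, and the other read 8.00, 9.28 and 8.21 in A16 cells and 6.41, 6.81 and 6.73 in NA16 cells, so that both fell like the brightest. The further probe set of Mrpl12 changed by -0.79. That of Mrpl57 changed by 0.18 and was not called (limma adjusted p = 0.645 over all probe sets). A dimmer probe set of the uncalled Mrpl37 read 10.05, 10.14 and 10.43 in A16 cells and 9.16, 9.45 and 9.64 in NA16 cells, a change of -0.76 (limma adjusted p = 0.00471 over all probe sets). The brightest Mrpl37 probe set had -0.39 and the dimmest -0.16, neither called, so that this gene depends on the probe set read. A dim further probe set of the uncalled Mrps15 was called lower (-0.56, limma adjusted p = 0.0112 over all probe sets). That of the called Mrpl50 was not (-0.60, 0.0596 by the same adjustment). No probe set of the called Mrpl51 passed that adjustment over all probe sets (limma adjusted p of 0.0502 to 0.164).

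The second algorithm read the same scans. In the PLIER columns 28 members were lower and 6 higher, against 16.8% and 22.6% of all genes. Over the 73 members the 2 sets of changes had a Pearson correlation of 0.997 across genes, which are not independent replicates, and the largest difference was 0.21, for Mrpl38. As both come from the same arrays, this is no further replicate.

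**Figure D3:**
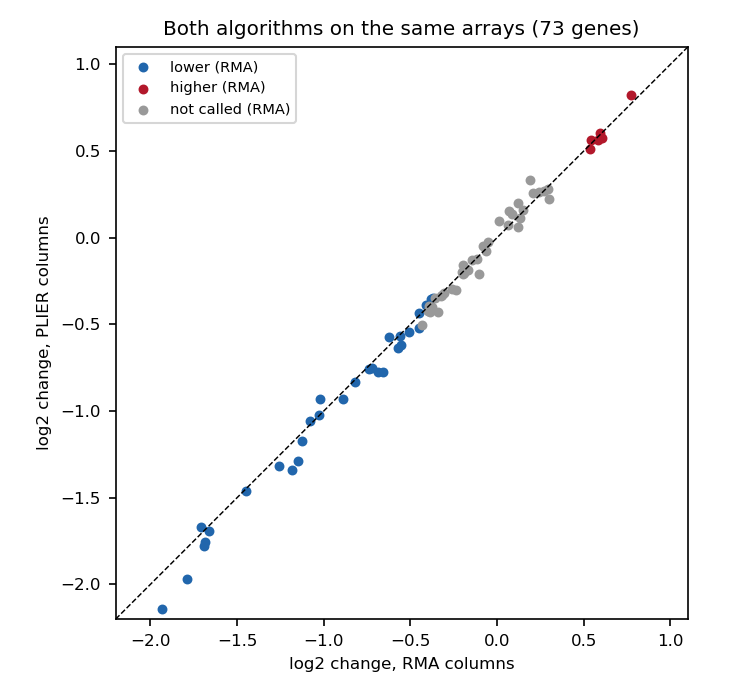
Log2 change, NA16 minus A16, of each of the 73 genes in the RMA columns (horizontal) and the PLIER columns (vertical), coloured by the call in the RMA columns, with the line of equality dashed. The points follow the line, and the largest distance is 0.21.

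The DNA upstream of these genes was examined for letters known to bind regulators of mitochondrial genes. RefSeq promoter windows (GRCr8, 250 bases before to 50 after the gene's start) were matched to 59 of the 73 members, and both strands were searched. The 14 members without a window include Mrpl38, Mrps34, Mrps28 and Mrps12 of the 12 largest falls, and Mrps35, the largest rise. The shares below therefore leave out some of the strongest changes. The letters CCGGAAG, bound by ETS factors such as the GABP complex, were in 20 of 59 members (33.9%), beside 15.1% of the 11700 array genes with a window and 8.75% of all windows. They were in 21.7% of the 23 lower members and 41.7% of the 36 others. The letters GCGCATGCG, part of the site bound by NRF1, were in 5 members (8.47%, beside 2.83% of array genes and 1.52% of all windows). E-box CACGTG was in 10.2% of members, 8.94% of array genes and 6.42% of all windows, and GGGCGG, bound by SP1, in 50.8%, 57.5% and 33.1%. The letters AAGATGGCG, bound by YY1, were in 8 members (13.6%, beside 3.14% of array genes and 1.73% of all windows), of which 5 were among the 23 lower members and 3 among the 36 others. Such matches are descriptions of sequence and not measured binding sites.

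The windows of 30 bases around the YY1 matches are shown because 5 of the 8 belong to lower members. In 7 of the 8 the match lies after the start of the gene and on the gene's own strand, and in these the letters include ATG. Each is written 5′ to 3′ on the gene's strand (GRCr8) with the match in capitals, and none of the 8 matches shares bases with an ETS match. The first 5 belong to genes that were lower in NA16 cells and the last 3 to genes that were not called.
Mrpl42, chr7:32028484-32028513, minus strand: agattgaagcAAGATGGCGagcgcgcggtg
Mrpl50, chr5:68668042-68668071, minus strand: gagcttgtcgAAGATGGCGgcgctgtgtgt
Mrpl46, chr1:142116987-142117016, minus strand: ggaagacggaAAGATGGCGgcgcccatagg
Mrps27, chr2:32474223-32474252, plus strand: ggtacgctccAAGATGGCGgcccccatggt
Mrps30, chr2:52195867-52195896, minus strand: gcggaggacaAAGATGGCGgctgccaggta
Mrpl37, chr5:127074942-127074971, minus strand: tgcccgggcaAAGATGGCGgcgtccaggta
Mrps18a, chr9:22367361-22367390, minus strand: gtgtgttcccAAGATGGCGgccctcagggc
Mrpl36, chr1:31795119-31795148, minus strand: cgtgaccctaCGCCATCTTtctttctggcg

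The windows of the NRF1 matches are shown because the gene for that factor itself was lower in NA16 cells. All lie before the start of the gene, the capitals mark the match on the gene's strand, and Mrpl17 holds a second match nearer its start. These letters nearly mirror themselves, so that a match on the other strand overlaps where a C follows the capitals. The calls of the 5 genes differed: Mrpl17 was lower, Mrpl32 and Mrpl44 were higher, and Mrpl22 and Mrps18b were not called.
Mrpl17, chr1:169575735-169575764, minus strand: aggctctgatGCGCATGCGcaagcacccct
Mrpl17, second match, chr1:169575697-169575726, minus strand: ccgagctactGCGCATGCGtcctctggaaa
Mrpl22, chr10:42845871-42845900, plus strand: gcctcggactGCGCATGCGtgcaggcagcc
Mrpl32, chr17:55260579-55260608, plus strand: tttgacctgtGCGCATGCGcagggaacctg
Mrpl44, chr9:88554908-88554937, plus strand: agaagcacttGCGCATGCGcactatgctag
Mrps18b, chr20:2842976-2843005, plus strand: tccttgtccgGCGCATGCGcagtcgttctt

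Some members share their upstream region with a neighbour read in the opposite direction. In the RefSeq annotation 14 such pairs with starts within 1000 bases had both genes measured. Overlaps of up to 300 bases were also counted as pairs, and Mrpl57 and Ska3 overlap at their starts (distance -106 bases). Mrpl46 and Mrps11 are both members, 1 from each subunit, and both were lower (-0.66 and -1.15). Their starts lie 234 bases apart, and the DNA between them at GRCr8 chr1:142117031-142117263, written on the plus strand, is shown because both genes lie beside it.
Region between Mrpl46 and Mrps11: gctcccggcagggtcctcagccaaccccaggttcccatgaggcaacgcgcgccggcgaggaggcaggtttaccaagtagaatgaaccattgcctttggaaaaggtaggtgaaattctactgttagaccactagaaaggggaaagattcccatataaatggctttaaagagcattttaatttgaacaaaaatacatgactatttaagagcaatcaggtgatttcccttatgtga

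Neighbours in other pairs were called in either direction. Over all genes tested 16.9% were lower and 21.9% higher, and whether the partners differ from these shares was not tested. In the 6 pairs with a lower member the partner was lower in 3, Mrps11, Tcp1 (-1.15) beside Mrpl18 and Ncapd2 (-0.93) beside Mrpl51. It was higher in 2, Pnpla7 (0.53) beside Mrpl41 and Ptcd2 (0.44) beside Mrps27, and Gga3 beside Mrps7 was not called. In the 8 pairs whose member was not lower the partner was lower in 4: Psma2 (-0.52) beside Mrpl32, Ska3 (-1.27) beside Mrpl57, Hira (-0.86) beside Mrpl40 and Ppp1r10 (-0.87) beside Mrps18b. Klc4 (2.49) beside Mrpl2 was higher, and the other 3 partners were not called.

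Of 6 genes listed with the mitochondrial ribosome under other names, 4 were lower and 0 higher, with a median of -0.83, beside 16.9% and 21.9% of all genes. Slirp, the RNA-binding partner of Lrpprc, is not a core ribosomal protein, and without it 3 of 5 were lower (median -0.68). Ptcd3, a pentatricopeptide repeat protein of the small subunit, read 10.75, 10.87 and 10.93 in A16 cells and 9.67, 9.77 and 9.67 in NA16 cells, 2.20-fold lower. Gadd45gip1, a large subunit protein, was 2.09-fold lower, Slirp 1.97-fold and Chchd1 1.60-fold (limma adjusted p of 0.00622 or less in each). Dap3, a GTP-binding protein of the small subunit, had -0.01 and Aurkaip1 -0.18, and neither was called.

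Of 27 assembly factors 10 (37%) were lower and 7 (25.9%) higher, with a median of 0.11, where 16.9% of all genes were lower and 21.9% higher. Of the 17 factors at or above the median signal 4 were lower, where 27.1% of all such genes were. Mterf3, a regulator of mitochondrial transcription and ribosome assembly, was 2.57-fold lower, the helicase Dhx30 2.19-fold, the ribosomal RNA dimethyltransferase Tfb1m 1.95-fold and the ribosomal RNA methyltransferase Mrm3 1.78-fold. Mettl15, a methyltransferase of the small subunit RNA, rose 2.43-fold, the GTPase Mtg1 1.89-fold, and Mettl17 and Mpv17l2 by 1.62-fold each. The number lower was 4 of the 17 at or above the median signal, 6 with the technical arrays left out or without A16 replicate 1, and 5 without NA16 replicate 2.

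Other factors act on the assembled ribosome or supply it. Of 13 translation factors 3 (23.1%) were lower and 6 (46.2%) higher (median 0.24), beside the same 16.9% and 21.9% of all genes. The elongation factors Tsfm and Gfm1 were 1.74-fold and 1.62-fold lower, and Lrpprc, which stabilises mitochondrial messenger RNA, 1.30-fold. Mtfmt, which formylates the initiator tRNA, was 1.83-fold higher, the release factor Mtrf1l 1.72-fold, the membrane insertase Oxa1l 1.66-fold and the recycling factor Mrrf 1.47-fold. Of 13 mitochondrial aminoacyl-tRNA synthetases, 15.4% were lower, a share near that of all genes, namely Yars2 (3.05-fold) and Tars2 (1.55-fold), and 5 (38.5%) were higher, led by Hars2 (1.63-fold), Fars2 (1.54-fold), Wars2 (1.52-fold) and Cars2 (1.43-fold). The number higher was 3 without A16 replicate 2 or without NA16 replicate 1.

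Among 15 regulators of mitochondrial transcription and biogenesis 4 were lower and 4 higher (26.7% each, median -0.16), shares not far from the 16.9% and 21.9% of all genes. Pprc1, a coactivator of the PGC-1 family, read 5.10-fold lower (mean 10.19 ± 0.10 in A16 and 7.84 ± 0.18 in NA16, SD, n = 2, limma adjusted p = 6.86e-05). Nrf1 itself was 2.47-fold lower (limma adjusted p = 0.000257), Gabpb1, a subunit of the GABP complex, 2.05-fold and Myc 1.48-fold. Ppargc1b, another PGC-1 family coactivator, was 1.58-fold higher, Mterf1 1.54-fold, the nuclear receptor Esrra 1.45-fold and the elongation factor Tefm 1.38-fold. Yy1 (-0.11), Gabpa (-0.20), Tfam (-0.16) and Polrmt (-0.31) were not called.

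The nuclear subunits of the respiratory chain, most of which join the products of this ribosome, had 23 of 79 (29.1%) lower and 2 (2.53%) higher (median -0.20). These were taken by symbol and include Sdha, Sdhb, Sdhc and Sdhd, whose complex holds no such product, and Cox6c-ps1, named as a pseudogene. Among all genes 16.9% were lower and 21.9% higher. Of the 71 subunits at or above the median signal 22 were lower, where 27.1% of all such genes were lower and 29.3% higher. Ndufa11 was 1.90-fold lower, Atp5pf 1.75-fold, Cox5a 1.72-fold and Ndufs6 1.70-fold, and 0 fell by 2-fold or more. The 2 that rose were Cox6a2 (1.91-fold) and Cox7a2l (1.59-fold). Cox5a and Cox6a2 lay below the median signal, with A16 means of 8.34 and 6.95. The number lower was 14 with the technical arrays left out or without A16 replicate 1, and 13 without NA16 replicate 2. Cytosolic ribosomal proteins, the counterparts in the main ribosome of the cell, had 3 of 50 (6%) lower and 2 (4%) higher, with a median of 0.05. These shares stand beside the same 16.9% and 21.9% of all genes. Their signal was near the top of the array's range, so that a change may be understated, and this list is no like-for-like comparison with the members. An A16 mean of at least 14 was found for 33 of the 50, where the highest reading of any gene on the A16 arrays was 14.96. Of these 33, 0 were called. At that level (a limit chosen after seeing the data) there were 73 genes in all, the 33 included. Of the 73, 12 were lower, and all 12 were genes outside this list. The 3 called lower were Rpl7l1 (-0.72), Rps27l (-0.64) and Rps13 (-0.55), and the 2 called higher were Rpl26l1 (1.38) and Rpl37-ps2 (1.13). This list was taken by symbol. Rpl7l1, Rps27l and Rpl26l1 are named as ribosomal protein-like genes and Rpl37-ps2 as a pseudogene. Rps13 was read from a probe set with an A16 mean of 7.87, far dimmer than the 33. The plot of changes by list sets these counts side by side.

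**Figure D4:**
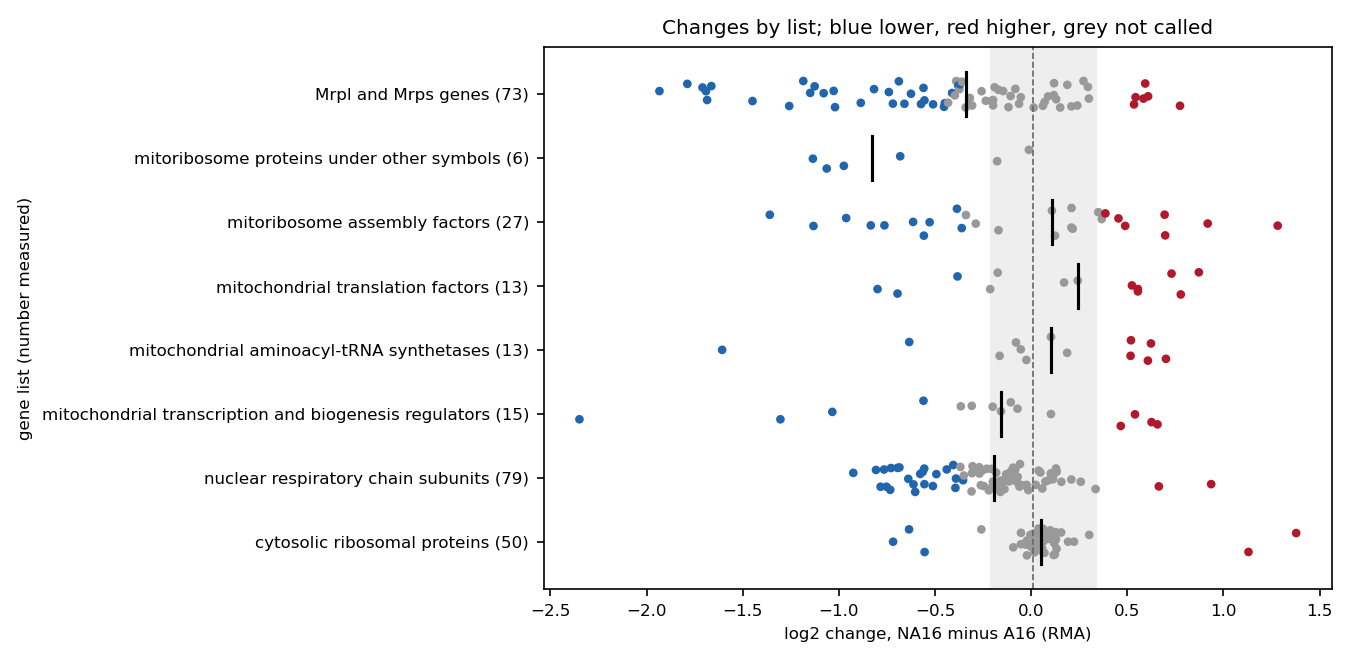
Log2 change in RMA intensity, NA16 minus A16, of the measured genes of 8 lists, 1 point a gene, blue for lower, red for higher and grey for not called, with a black bar at each median and vertical scatter without meaning. The grey band spans the quartiles of all genes (-0.21 to 0.34) and the dashed line their median: the medians are -0.34 for the Mrpl and Mrps genes and 0.05 for the cytosolic ribosomal proteins.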

How the data were processed

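RNA of A16 and NA16 cells was labelled and hybridised to Affymetrix rat genome arrays, and the authors normalized the scans in Avadis by RMA and by PLIER (per the labels and methods). Versions were not given in the sources used here. Values deposited by the authors are intensities on a linear scale, with 12 columns from 6 arrays, and their log2 was taken here. The lowest RMA values were 16.1 to 17.6 and the lowest PLIER value 16, a floor that may shrink changes of dim genes. All 73 members lay at or above the median signal of all genes.

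Of the probe sets, 57 were controls and 20826 had 1 symbol in the platform annotation, of which 20758 matched the RefSeq gene table (GRCr8) by Entrez identifier. Each of 14217 genes was represented by its brightest probe set over the log2 RMA columns. Detection calls were not used. No label says outright which biological replicate technical replicate 2 repeats, but only biological replicate 1 carries a technical number, so it was averaged with that one. The labels call replicates 1 and 2 biological and the methods speak of biological repeats, without saying what was repeated, such as the culture, so p-values reflect only how far these samples spread, and that spread may be technical. The number of arrays limits the precision of every value.

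The contrast of NA16 with A16 was fitted in R 4.3.3 with limma 3.58.1 (lmFit, then eBayes), with p-values adjusted by Benjamini-Hochberg across all genes and called below 0.05. Residual degrees of freedom were 2 and prior ones 4.78. Changes in log2 are NA16 minus A16, and SDs are over n = 2 replicates. On simulated data with 14217 genes and 200 changed, the fit found 54% of 1.5-fold and 96% of 2-fold changes, and 7.41% of its calls were false. The simulated noise was independent between samples and few genes were changed, whereas 38.9% of all genes were called in the real data. These rates therefore need not hold for the real comparison. Promoters, motifs and neighbours were read with Python 3.11.15 from RefSeq windows. Named by value are the 12 largest falls, the 6 rises, the smallest change, and from each other list up to 4 called genes by size of change, with any called against its main direction where these were 3 or fewer. Others are named as examples chosen after their values were seen, as were the structural groupings. The members, lists and roles were chosen with earlier results of these data known. Alternatives were the PLIER columns, 16 added or subtracted, averaged probe sets, a median-signal filter, array centring, other treatments of the technical arrays, a trended and robust fit, the methods' t-test, a replicate block, and each replicate left out. Joining the technical array to its nearest array was added after seeing the data.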

Additional observations from a re-analysis of the deposited data

How the results depend on the processing

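Of 306 values of the 18 named called members under 17 alternatives, 276 kept their call and direction, 30 lost the call (18 of them under the methods' t-test) and 0 changed sign. Mrpl53, which was not called, changed sign when the arrays were shifted to the same median (-0.017), without A16 replicate 2 (-0.001) and without NA16 replicate 1 (-0.025), and ranged from -0.025 to 0.051 with 1 replicate left out at a time. After Benjamini-Hochberg adjustment the methods' t-test called 0 members lower, 0 higher, 0 Mrpl and 0 Mrps genes lower, and 0 genes of each other list in the direction counted, while 28 members were lower and 4 higher at an unadjusted p below 0.05. With 1 replicate left out at a time, members lower ranged from 22 to 31, members higher from 2 to 6, Mrpl genes lower from 13 to 20, and the median change from -0.43 to -0.18. In the same way assembly factors lower ranged from 5 to 8, aminoacyl-tRNA synthetases higher from 3 to 5, and respiratory chain subunits lower from 13 to 18. A lone replicate was then assumed to vary like the other state. With only genes at or above the median signal, 4 assembly factors were lower and 2 synthetases higher, since fewer genes of these lists were tested. With technical replicate 2 left out, 6 assembly factors, 14 respiratory chain subunits and 1 cytosolic ribosomal protein were lower, and 1 of the latter also with technical replicate 2 averaged with biological replicate 2. The cause of the other changes was not tested. The replicate numbers pair only 2 samples a state and the labels do not say that a number marks a shared batch: with the replicate block, 39 members were lower and 9 higher, and the deviations of same-numbered samples had a correlation of 0.557 across genes.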
